A study of Rattus norvegicus with 8 samples.

Results

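Bone morphogenetic protein (BMP) signalling was examined through 10 genes: the ligands Bmp2, Bmp4, Bmp6 and Bmp7, the type I receptor Bmpr1a, the secreted antagonist Nog (noggin), and the Id genes Id1, Id2, Id3 and Id4. They were chosen by name, with earlier results of these data known. Every probe set whose only gene symbol is one of these names was read. This gave 18 of the 31042 probe sets tested and 10 of the 14217 genes named by a single symbol. Rat pups of postnatal day 7 gave whole-brain cell suspensions, from which A2B5+ cells (called oligodendrocyte progenitors in the labels) and GalC+ cells (called oligodendrocytes) had been sorted by flow cytometry. Each population had 4 biological replicates, each a pool of 1 litter (10 pups) run on 1 Affymetrix array; the labels used here name no strain, transgene or treatment. A2B5 is a surface ganglioside epitope of glial precursors and of some neurons, and GalC is a galactolipid of oligodendrocytes. The sort used surface epitopes, so either population can hold other cells that carry them.

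BMPs are secreted ligands of the TGF-beta superfamily that bring type I and type II receptor kinases together. The type I receptors phosphorylate Smad1, Smad5 and Smad9, which join Smad4 and enter the nucleus, where the Id genes are among their direct targets. Noggin binds BMPs outside the cell and keeps them from their receptors. Id proteins carry a helix-loop-helix domain without the basic region that touches DNA, and so tie up bHLH transcription factors, the E proteins above all, in pairs that cannot bind DNA. In cultures of oligodendrocyte precursors, BMPs are known to hold back maturation and to favour astrocytes, and Id2 and Id4 are known as inhibitors of precursor differentiation.

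Each deposited value is the signal of a probe set on 1 array divided by the median of that probe set over the 8 arrays. A value of 1 is thus the middle of the arrays, and the ratios carry differences between arrays but not how strongly a gene is expressed, so that levels of different genes cannot be set against each other and presence cannot be judged. The median ratio per array lay between 0.979 and 1.03. Arrays of the same population differed with an SD of 0.21 to 0.34 on the log2 scale, and arrays of different populations with an SD of 0.42 to 0.68. The markers of myelinating oligodendrocytes separated the arrays by their labels: 9 of 9 measured markers were higher in GalC+ cells, and their summed ratio was 1.03 to 1.82 on A2B5+ arrays and 16.9 to 37.4 on GalC+ arrays. Of 6 progenitor markers, 2 passed the test, Pdgfra and Nxph1, both lower in GalC+ cells. Markers of other cell types also moved with the population, and their values stand beside the results below.

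Among the members, Bmp2 and Bmp4 were higher in GalC+ cells by 2.98-fold to 5.51-fold, Bmp6 was higher on some of its probe sets, and Id1, Id4 and Nog were lower in GalC+ cells by smaller amounts. Bmp7, Bmpr1a, Id2 and Id3 did not pass the test. Over probe sets, 11 of 18 (61.1%) had an adjusted p under 0.05 (limma, Benjamini-Hochberg over all probe sets, two-sided), where 26.8% of all probe sets did. As the members were chosen with earlier results of these data known, such counts are descriptive and test no excess. Of the 18, 5 were higher in GalC+ cells (13.5% of all probe sets) and 6 were lower (13.2% of all). The lowest array of 1 population lay above the highest of the other for 10 of the 18, against 29.0% of all probe sets. The median log2 fold change, GalC+ over A2B5+, was 0.06 for the members and 0.04 for all probe sets. By role, 5 of 8 ligand probe sets passed, each higher in GalC+ cells, and 5 of 8 Id probe sets passed, each lower. The ligand calls were on Bmp2, Bmp4 and Bmp6, and the Id calls were on Id1 and all 4 probe sets of Id4. A gene with several probe sets thus counts more than 1 time here. With 1 probe set per gene, the one with the largest variance, 6 of 10 members passed where 35.7% of all genes did, and for 5 of 10 the populations did not overlap, against 36.2% of all genes. When the spread was taken from each probe set alone, with no pooling over probe sets, 14.2% of all probe sets passed, and of the 11 calls 4 did, namely Bmp2 1398270_at, Bmp4, Id1 and Id4 1385923_at, and the other 7 had adjusted p between 0.0506 and 0.101.

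**Figure D1:**
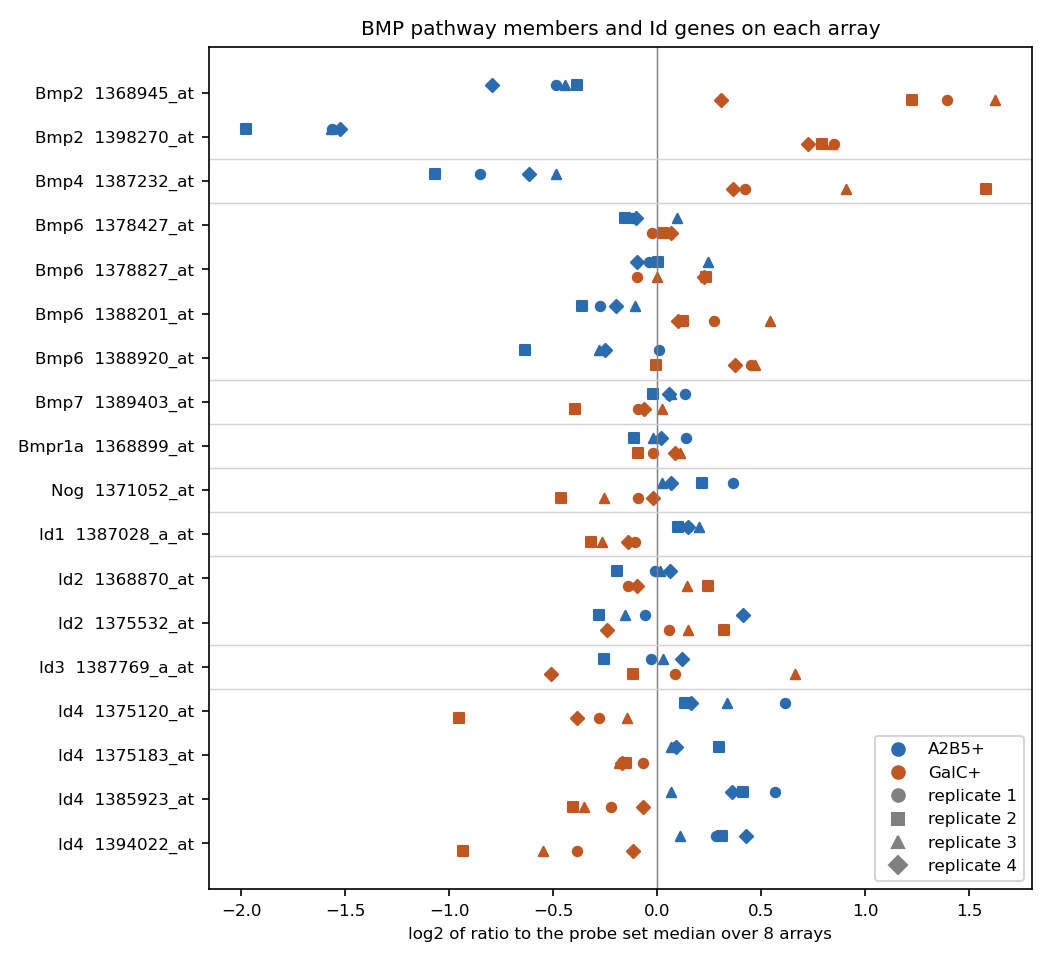
The horizontal axis is the log2 of the ratio to the probe set's median over the 8 arrays, and each row is 1 probe set of a member; blue points are A2B5+ arrays, orange points GalC+ arrays, and the marker shape gives the replicate. The orange points of both Bmp2 probe sets and of Bmp4 all lie to the right of the blue ones, those of Id1, Nog and the 4 Id4 probe sets all lie to the left, and those of Id2 and Id3 are mixed.

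Bmp2, a ligand that signals through Bmpr1a and its relative Bmpr1b, had the largest difference of the members. On probe set 1398270_at the ratios were 0.338, 0.254, 0.337 and 0.347 on the A2B5+ arrays and 1.802, 1.732, 1.791 and 1.653 on the GalC+ arrays. The populations lay far apart, and the GalC+ arrays differed little among themselves. GalC+ cells exceeded A2B5+ cells by a log2 fold change of 2.46 ± 0.11 (SE, n = 4 arrays per population; adjusted p = 1.94e-06 by limma), a fold of 5.51 that ranked 124 from the highest of all probe sets. On the other Bmp2 probe set, 1368945_at, the ratios were 0.714, 0.765, 0.736 and 0.577 on the A2B5+ arrays and 2.623, 2.332, 3.075 and 1.235 on the GalC+ arrays. All GalC+ arrays were again above all A2B5+ arrays, but replicate 4 of GalC+ was well below the other GalC+ arrays. There the log2 fold change was 1.66 ± 0.24 (adjusted p = 9.39e-04 by limma).

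Bmp4, the closest relative of Bmp2 and a ligand studied as an inhibitor of oligodendrocyte maturation, was read from 1 probe set. Its ratios were 0.554, 0.477, 0.714 and 0.653 on the A2B5+ arrays and 1.341, 2.993, 1.877 and 1.286 on the GalC+ arrays. The populations did not overlap, and the GalC+ arrays were spread widely, with replicate 2 the highest. Bmp4 thus had a log2 fold change of 1.57 ± 0.25 (95% interval 1.02 to 2.13, adjusted p = 0.00139 by limma), a fold of 2.98. Both Bmp2 probe sets and Bmp4 passed the test with any 1 of the 8 arrays left out.

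Of the 4 probe sets of Bmp6, a ligand of another BMP subgroup than Bmp2 and Bmp4, 2 passed the test. On 1388201_at the ratios were 0.825, 0.777, 0.928 and 0.870 in A2B5+ cells and 1.208, 1.088, 1.454 and 1.072 in GalC+ cells, without overlap, and the log2 fold change was 0.50 ± 0.11 (adjusted p = 0.00748 by limma). On 1388920_at they were 1.006, 0.644, 0.823 and 0.841 against 1.368, 0.994, 1.386 and 1.294, and the log2 fold change was 0.61 ± 0.15 (adjusted p = 0.0128 by limma). On that probe set alone among the 11 called, the populations overlapped, since A2B5+ replicate 1 was above GalC+ replicate 2. The remaining Bmp6 probe sets, 1378427_at and 1378827_at, had log2 fold changes of 0.09 (95% interval -0.08 to 0.27) and 0.06 (95% interval -0.17 to 0.30) and did not pass. The mean over the 4 probe sets was 0.32 on the log2 scale (adjusted p = 0.0106 by limma over all genes).

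Bmp7, a ligand of the same subgroup as Bmp6, had ratios of 1.095, 0.985, 1.048 and 1.041 in A2B5+ cells and 0.936, 0.761, 1.015 and 0.955 in GalC+ cells. GalC+ replicate 3 lay among the A2B5+ arrays, and the other GalC+ arrays lay below them. Its log2 fold change of -0.19 ± 0.10 (95% interval -0.41 to 0.02) did not pass the test (adjusted p = 0.175 by limma).

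Markers of cells other than oligodendrocytes were also higher on the GalC+ arrays, where the ligands were. Of 12 macrophage and microglia markers, 10 were higher in GalC+ cells, and their summed ratio was 5.54 to 9.63 on A2B5+ arrays and 15.1 to 21.8 on GalC+ arrays. Of 10 mural cell markers, 9 were higher (summed ratio 5.34 to 7.31 and 12.4 to 20.9), and of 8 fibroblast and meningeal markers, 5 were higher and 1, Pdgfra, was lower (5.38 to 7.66 and 9.01 to 12.4). None of 9 endothelial markers passed limma's test, and 0 did so at an unadjusted p under 0.05 or with the spread of each gene alone (4.87 to 10.8 and 4.76 to 9.92). These markers' part in the ligand results was not tested, and since the level was removed, it cannot be judged whether any marker is near 0. In RNA of a whole sorted population, more cells that carry a transcript and more of it per cell cannot be told apart. Bmp2 1368945_at was lowest among GalC+ arrays on replicate 4 and highest on replicate 3, and the mean log2 ratios of the myelinating markers (0.90 and 1.99), of the macrophage markers (0.26 and 0.79) and of the mural markers (0.29 and 1.00) were lowest and highest on these same arrays. Bmp2 1398270_at was also lowest on GalC+ replicate 4 but highest on replicate 1. Bmp4 was highest on GalC+ replicate 2, where the markers of newly formed oligodendrocytes were highest too (mean log2 ratio 1.01). The rest of the order differed: Bmp4 was next highest on GalC+ replicate 3 (ratio 1.877), where these markers were lowest among GalC+ arrays (0.13).

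**Figure D2:**
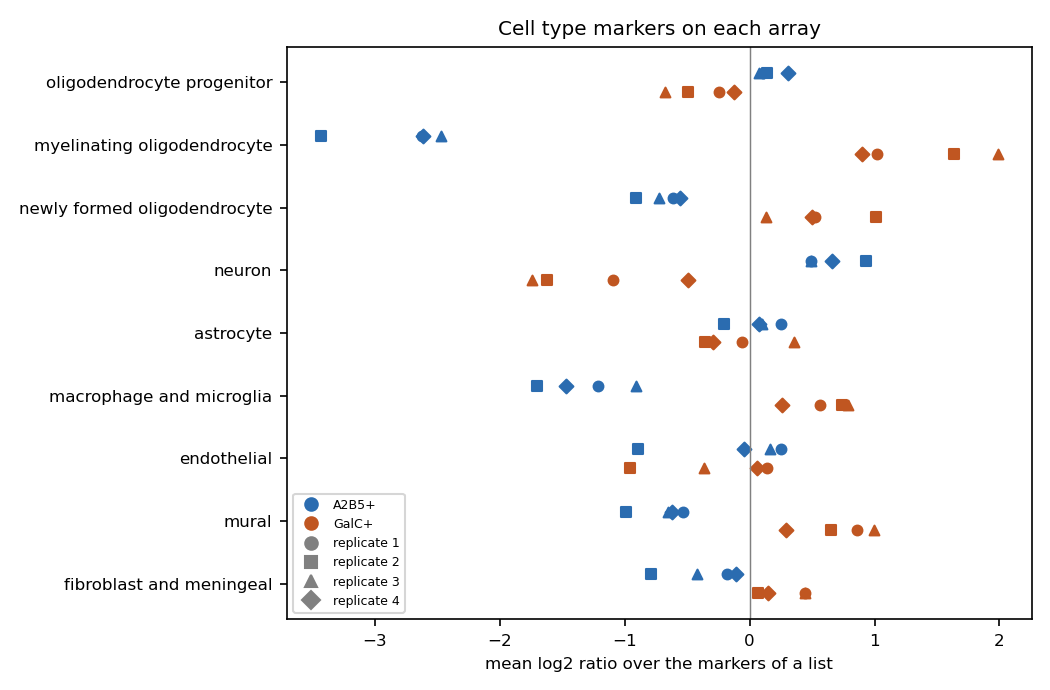
The horizontal axis is the mean log2 ratio over the markers of a list, each row is a list of cell type markers, and each point is an array (blue A2B5+, orange GalC+, marker shape for the replicate). The populations lie apart for myelinating, newly formed, macrophage, mural and fibroblast markers, which are higher on GalC+ arrays, and for progenitor (0.078 to 0.31 against -0.68 to -0.12) and neuron markers (0.49 to 0.93 against -1.74 to -0.50), which are higher on A2B5+ arrays, while astrocyte and endothelial markers overlap.

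The receptor Bmpr1a had ratios of 1.101, 0.925, 0.987 and 1.013 in A2B5+ cells and 0.985, 0.937, 1.079 and 1.059 in GalC+ cells. The populations overlapped throughout. The log2 fold change was 0.01 ± 0.08, with a 95% interval of -0.17 to 0.20 (adjusted p = 0.924 by limma), and its sign turned to -0.024 after quantile normalization. That interval covers the measured ratio of this probe set, whose signal over background is unknown.

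Nog, which encodes the antagonist noggin, had ratios of 1.287, 1.160, 1.015 and 1.048 in A2B5+ cells and 0.937, 0.725, 0.838 and 0.985 in GalC+ cells. All A2B5+ arrays were above all GalC+ arrays, with a gap between 0.985 and 1.015. The log2 fold change was -0.38 ± 0.11 (adjusted p = 0.0361 by limma), 1.30-fold lower in GalC+ cells. This call was lost when any of 5 arrays was left out (A2B5+ replicates 1, 2 or 4, or GalC+ replicates 2 or 3), with adjusted p up to 0.101.

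**Figure D3:**
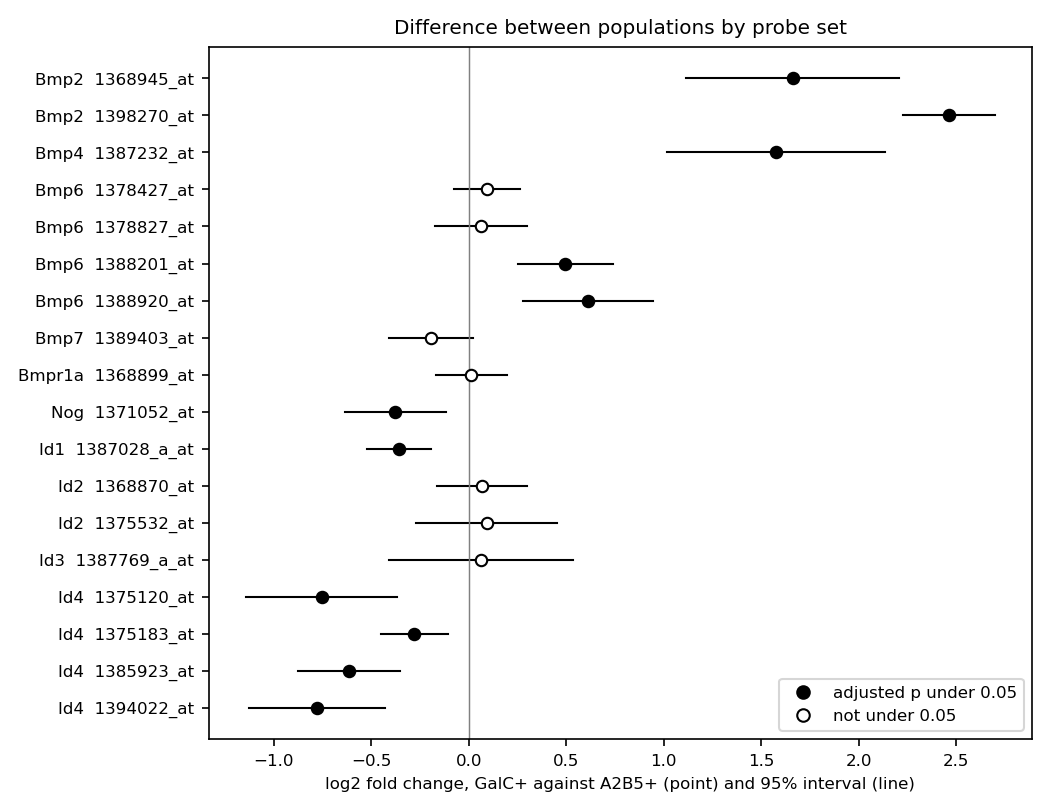
The horizontal axis is the log2 fold change of GalC+ over A2B5+ with its 95% interval as a line, and each row is 1 probe set of a member; filled points have an adjusted p under 0.05. Both Bmp2 probe sets and Bmp4 stand above 1.5, the other filled points lie between -0.78 and 0.61, and the open points of Bmp6, Bmp7, Bmpr1a, Id2 and Id3 have intervals that include 0.

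Of the Id paralogs, Id1 and Id4 passed the test and Id2 and Id3 did not; the difference between paralogs is tested after their values. The upstream sequences of Id1, Id2 and Id3 are shown here, since all are known as targets of the same pathway. RefSeq's promoter table for the rat (GRCr8) held 8 of the 10 members, all but Bmp2 and Bmp7. Each sequence is the 211 bases from 250 to 40 bases before the annotated start, 5′ to 3′ on the strand of the gene: chr3:161671314-161671524 (plus strand) for Id1, chr6:47471035-47471245 (minus strand) for Id2 and chr5:153656041-153656251 (plus strand) for Id3. Capitals mark the letters TATAAA or an E-box, CANNTG, the motif that bHLH factors bind.
Id1: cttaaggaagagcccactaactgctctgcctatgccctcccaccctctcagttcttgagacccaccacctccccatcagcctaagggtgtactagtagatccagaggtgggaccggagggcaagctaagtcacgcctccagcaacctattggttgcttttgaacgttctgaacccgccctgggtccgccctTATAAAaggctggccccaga
Id2: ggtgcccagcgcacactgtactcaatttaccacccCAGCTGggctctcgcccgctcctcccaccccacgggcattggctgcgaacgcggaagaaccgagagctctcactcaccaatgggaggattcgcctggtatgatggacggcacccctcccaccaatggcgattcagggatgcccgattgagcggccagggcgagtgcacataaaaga
Id3: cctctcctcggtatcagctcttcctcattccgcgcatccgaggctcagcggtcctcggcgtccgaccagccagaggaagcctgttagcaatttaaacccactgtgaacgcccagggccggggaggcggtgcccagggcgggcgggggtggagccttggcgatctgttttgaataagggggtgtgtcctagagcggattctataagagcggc

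These windows differed in the motifs searched, on both strands. TATAAA was found in Id1, 59 bases before the start, and in 10.6% of the 33469 windows of the table. CANNTG was found in Id2, 215 bases before the start, and in 59.7% of all windows. CCAAT was found 1 time in Id1 (103 bases before the start) and 3 times in Id2 (178, 139 and 95 bases before it), and in 30.2% of all windows. GGCGCC, a GC-rich element bound by BMP-activated Smads, was in none of the 3 windows and in 7.05% of all. No match says only that these letters are not in this window. Bases nearer to the start than 40 were searched in no gene, so the windows cannot show whether a promoter has or lacks a TATA box. The Id4 window is not printed, since an ATG begins at its annotated start.

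Id1, a classic early target of BMP signalling, had ratios of 1.108, 1.071, 1.148 and 1.107 in A2B5+ cells and 0.929, 0.802, 0.832 and 0.907 in GalC+ cells. The populations did not overlap and each was tight. Id1 had a log2 fold change of -0.36 ± 0.07 (adjusted p = 0.00572 by limma), 1.28-fold lower in GalC+ cells, and it passed the test with any 1 array left out.

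Id4, an Id protein known to restrain oligodendrocyte precursors from maturing, was lower in GalC+ cells on all 4 of its probe sets. On 1394022_at the ratios were 1.215, 1.239, 1.078 and 1.342 in A2B5+ cells and 0.765, 0.524, 0.682 and 0.922 in GalC+ cells, a log2 fold change of -0.78 ± 0.16 (adjusted p = 0.00464 by limma). On 1375120_at they were 1.529, 1.097, 1.261 and 1.119 against 0.822, 0.517, 0.903 and 0.764, a log2 fold change of -0.75 ± 0.17 (adjusted p = 0.00984 by limma). No A2B5+ array on either probe set was below any GalC+ array, and GalC+ replicate 2 was the lowest on both. On 1385923_at the ratios were 1.478, 1.332, 1.048 and 1.280 against 0.858, 0.756, 0.782 and 0.952, a log2 fold change of -0.61 ± 0.12 (adjusted p = 0.00370 by limma). On 1375183_at they were 1.059, 1.228, 1.048 and 1.063 against 0.952, 0.900, 0.881 and 0.888, a log2 fold change of -0.28 ± 0.08 (adjusted p = 0.0229 by limma). These probe sets too were without overlap, but the call of 1375183_at was lost when A2B5+ replicate 2 or GalC+ replicate 2, 3 or 4 was left out, with adjusted p up to 0.0564. The mean over the 4 probe sets was -0.61 on the log2 scale (adjusted p = 0.00129 by limma over all genes).

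Id2, known like Id4 as an inhibitor of precursor differentiation, did not pass on either probe set. On 1368870_at the ratios were 0.993, 0.875, 1.007 and 1.042 in A2B5+ cells and 0.908, 1.182, 1.102 and 0.934 in GalC+ cells, and on 1375532_at 0.960, 0.823, 0.897 and 1.329 against 1.040, 1.250, 1.107 and 0.845. The arrays of both populations were mixed on each. For the first the log2 fold change was 0.07 (95% interval -0.16 to 0.30, adjusted p = 0.657 by limma) and for the second 0.09 (95% interval -0.27 to 0.45, adjusted p = 0.708 by limma).

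Id3, a paralog that BMPs also induce, had ratios of 0.980, 0.838, 1.020 and 1.087 in A2B5+ cells and 1.062, 0.922, 1.584 and 0.701 in GalC+ cells. Both the highest and the lowest array belonged to GalC+, and the A2B5+ arrays lay between them. The log2 fold change was 0.06 ± 0.21 (95% interval -0.41 to 0.53, adjusted p = 0.847 by limma), and its sign turned to -0.036 after quantile normalization. The SD of the log2 ratios among GalC+ arrays was 0.49. GalC+ replicate 3, the highest for Id3, also had the highest mean log2 ratio of the 8 astrocyte markers (0.36), and likewise of the myelinating (1.99), macrophage (0.79), mural (1.00) and fibroblast (0.45) markers. GalC+ replicate 4, the lowest for Id3, was the lowest GalC+ array for the myelinating, macrophage and mural markers but not for the astrocyte markers, which were lowest on replicate 2. None of these astrocyte markers passed limma's test after adjustment, and 1 had an unadjusted p under 0.05. With the spread of each gene alone, 0 passed after adjustment and 1 had an unadjusted p under 0.05. Aldh1l1 came closest in limma (log2 fold change -0.36, adjusted p = 0.0548), with all A2B5+ arrays above all GalC+ arrays. The summed ratio of the astrocyte markers was 6.98 to 9.63 on A2B5+ arrays and 6.30 to 10.4 on GalC+ arrays.

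Most neuron markers and some progenitor markers were higher in A2B5+ cells, where Id1, Id4 and Nog were higher too. Of 10 neuron markers, 9 were lower in GalC+ cells, and their summed ratio was 14.3 to 20.3 on A2B5+ arrays and 3.51 to 7.24 on GalC+ arrays. Of 6 progenitor markers, 2 were lower in GalC+ cells, Nxph1 (log2 fold change -2.35) and Pdgfra (-1.26). The other 4 did not pass: Ptprz1 (-0.24), Lhfpl3 (-0.09), Cspg4 (0.01) and Vcan (0.67). Ptprz1 had all A2B5+ arrays above all GalC+ arrays (adjusted p = 0.0553 by limma). Vcan went the other way, with all GalC+ arrays above all A2B5+ arrays (adjusted p = 0.0583 by limma). The summed ratio of the 6 was 6.44 to 7.57 on A2B5+ arrays and 4.45 to 5.85 on GalC+ arrays. The part of the neuron and progenitor markers in the results on Id1, Id4 and Nog was not tested.

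Whether paralogs differed in their fold was tested within the arrays, with the mean log2 ratio over the probe sets of each gene, in 6 pairs of Id genes and 6 pairs of ligands (exact permutation test over the 70 assignments of arrays, two-sided, Benjamini-Hochberg over the 12). The smallest p this design allows is 0.0286, and 6 pairs reached it, which gave each an adjusted p of 0.0571, so that 0 of 12 passed. Among the Id genes, the fold of Id2 exceeded that of Id4 by 0.69 ± 0.22 on the log2 scale (SE), at that smallest p. Id3 minus Id4 was 0.67 ± 0.29 (adjusted exact p = 0.114), Id1 minus Id4 was 0.25 ± 0.09 (adjusted exact p = 0.114) and Id1 minus Id2 was -0.44 ± 0.17 (adjusted exact p = 0.114). Id1 minus Id3 was -0.42 ± 0.27 and Id2 minus Id3 was 0.02 ± 0.22. Among the ligands, the difference was 1.75 ± 0.16 for Bmp2 minus Bmp6, 2.25 ± 0.18 for Bmp2 minus Bmp7, 1.26 ± 0.31 for Bmp4 minus Bmp6, 1.77 ± 0.37 for Bmp4 minus Bmp7 and 0.51 ± 0.07 for Bmp6 minus Bmp7, each at the smallest p. Bmp2 minus Bmp4 was 0.49 ± 0.29 (adjusted exact p = 0.187). Probe sets of the same gene also differed in log2 fold change: 1.66 and 2.46 for Bmp2, 0.06 to 0.61 for Bmp6 and -0.78 to -0.28 for Id4. The part of the probe sets in the differences between paralogs was not tested. Without GalC+ replicate 4, 8 pairs were at the smallest exact p and passed (adjusted p = 0.0429); since the adjusted value at that p depends only on how many pairs share it, the step from 0 to 8 is no measure of the size of the differences.

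The rest of the pathway was read from 6 lists of other genes, with 1 probe set per gene (the one with the largest variance over the 8 arrays) and adjustment over all 14217 genes. These lists too were chosen with earlier results of these data known, so their counts are descriptive. Of 54 measured genes, 23 passed the test (42.6%), against 35.7% of all genes: 5 were higher in GalC+ cells (9.26%, against 18.2% of all genes) and 18 were lower (33.3%, against 17.5% of all). The median log2 fold change of the 54 was -0.13, and that of all genes was 0.04. Of the 10 neuron markers, 9 were lower in GalC+ cells too, and their part in the count of lower genes was not tested. With the spread of each gene alone, 10 of the 54 passed, a smaller share than the 23.8% of all genes. The larger share of the main fit thus did not hold in that setting. Between 15 and 22 of the 54 passed when 1 array was left out, the fewest without A2B5+ replicate 2. Genes below are named by the size of their change within each list, and where a count of 5 or fewer needed other names, those were chosen after their values were seen and are said to complete the count.

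Of 5 other BMP-type ligands measured, 2 passed the test (40%, against 35.7% of all genes). Bmp5 was higher and Bmp3 was lower in GalC+ cells. Bmp5, a ligand of the subgroup of Bmp6 and Bmp7, had ratios of 0.765, 0.482, 0.489 and 0.555 in A2B5+ cells and 1.996, 1.402, 1.601 and 1.235 in GalC+ cells. The populations did not overlap, and the log2 fold change was 1.45 ± 0.18 (adjusted p = 3.23e-04 by limma). The other Bmp5 probe set gave 0.27 and did not pass (adjusted p = 0.0654 by limma over all probe sets). Bmp3, an atypical member that opposes other BMPs, had a log2 fold change of -0.46 ± 0.12 (adjusted p = 0.0119 by limma).

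Of 8 other receptors and co-receptors, 3 passed the test (37.5%, against 35.7% of all genes). All 3 were lower in GalC+ cells, as were 17.5% of all genes. Acvr1, a type I receptor also called ALK2, had a log2 fold change of -0.71 ± 0.17 (adjusted p = 0.00800 by limma). Of its other probe sets, 1 gave -0.57 and passed, and the last gave 0.08 and did not pass. Rgmb, a BMP co-receptor of the repulsive guidance molecule family, had a log2 fold change of -0.59 ± 0.13 (adjusted p = 0.00616 by limma), and its other probe set gave -0.62. Acvr2b, a type II receptor, completes the count with -0.40 (adjusted p = 0.0257 by limma). The type II receptor Bmpr2 had a log2 fold change of -0.32 and did not pass (adjusted p = 0.471 by limma). Its other probe set had the opposite sign, 0.20, and did not pass either (adjusted p = 0.167 by limma over all probe sets). The median of the 8 was -0.36.

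Of 13 other extracellular antagonists and processing proteases, 8 passed the test (61.5%, against 35.7% of all genes). In GalC+ cells 3 were higher (23.1%, against 18.2% of all genes) and 5 were lower (38.5%, against 17.5%). The higher ones were led by Fstl3, a follistatin-like binder of activins and some BMPs, whose ratios were 0.643 to 0.854 in A2B5+ cells and 1.146 to 1.426 in GalC+ cells and whose log2 fold change was 0.81 ± 0.11 (adjusted p = 5.17e-04 by limma). The other Fstl3 probe set gave 0.26 and did not pass (adjusted p = 0.0524 by limma over all probe sets). Bmp1, which is no ligand but a metalloprotease that cleaves procollagen and the antagonist chordin, had a log2 fold change of 0.56 ± 0.10 (adjusted p = 0.00223 by limma), while its other probe set gave -0.02. Fstl1, a secreted follistatin-like protein, completes the count of higher genes with 0.45; of its other probe sets, 1 gave 0.35 and passed and 1 gave 0.28 and did not. The lower ones were led by Fst, follistatin itself, with -0.77 ± 0.16 (adjusted p = 0.00397 by limma) and -0.57 on its other probe set, which also passed, and by Bmper, a secreted BMP-binding protein, with -0.70 ± 0.20 (adjusted p = 0.0215 by limma). Nbl1 (-0.61), Chrd, which encodes chordin (-0.39), and Twsg1, a partner of chordin (-0.27), complete the count of lower genes. The other Twsg1 probe set gave -0.12 and did not pass (adjusted p = 0.402 by limma over all probe sets). That count fell to between 2 and 4 when 1 array was left out, being 2 without A2B5+ replicate 1 or 4 and 3 without replicate 2 of either population. The call of Bmper was lost in 3 of these 8 fits.

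Of 12 Smads and Smad regulators, 3 passed the test (25%, against 35.7% of all genes). In GalC+ cells 1 was higher and 2 were lower. The count depends on the probe set used. Smad5, Smad7 and Zeb2 are in this list and did not pass by that probe set, but others of their probe sets passed over all probe sets. These were 2 of 4 for Smad5 (lower in GalC+ cells), 1 of 3 for Smad7 (higher) and 2 of 5 for Zeb2 (higher). Smurf1, a ubiquitin ligase that marks BMP-activated Smads for breakdown, had a log2 fold change of 0.68 ± 0.11 (adjusted p = 9.68e-04 by limma), and its other probe set gave 0.33 and also passed. Smad1, a transducer of the BMP signal, had -0.47 ± 0.15 (adjusted p = 0.0376 by limma) and -0.43 on its other probe set. Smad4, the common partner of the transducers, had -0.27 ± 0.09 (adjusted p = 0.0368 by limma) and 0.03 on its other probe set. Leaving out 1 array ended the calls of Smad1 and Smad4 in 6 of 8 fits each, with adjusted p up to 0.103.

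Among 8 transcription factors known to respond to BMPs, 2 passed the test (25%, against 35.7% of all genes). These were Dlx5 and Hey1, both lower in GalC+ cells, as were 17.5% of all genes. Dlx5, a homeobox factor of forebrain interneuron progenitors as well as of bone, had ratios of 1.611, 2.374, 1.232 and 1.725 in A2B5+ cells and 0.395, 0.288, 0.193 and 0.768 in GalC+ cells. The populations did not overlap, and the log2 fold change was -2.23 ± 0.37 (adjusted p = 0.00135 by limma), 4.69-fold lower in GalC+ cells. Hey1, a bHLH repressor also controlled by Notch, had -0.44 ± 0.13 (adjusted p = 0.0284 by limma), and leaving out 1 array ended its call in 4 of 8 fits. Msx2, also in this list, did not pass by the probe set used, but 1 of its 3 probe sets passed, with 0.26 (adjusted p = 0.0125 by limma over all probe sets).

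Of 8 bHLH factors that Id proteins bind or whose partners they bind, 5 passed the test (62.5%, against 35.7% of all genes). All 5 were lower in GalC+ cells, as were 17.5% of all genes, and the median over the 8 was -0.43. Neurod1, a neuronal bHLH factor that is also in the list of neuron markers, was 5.34-fold lower, with a log2 fold change of -2.42 ± 0.35 (adjusted p = 6.71e-04 by limma). Tcf4, an E protein, had -0.78 ± 0.10 (adjusted p = 4.54e-04 by limma), and its other probe set gave -0.62 and also passed. Tcf3 (-0.70), the E protein that gives E12 and E47, Neurog2 (-0.52), a proneural factor, and Olig1 (-0.35), an oligodendrocyte-lineage factor, complete the count. The E protein gene Tcf12 (0.05) and Olig2 (0.04), a lineage factor, did not pass.

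**Figure D4:**
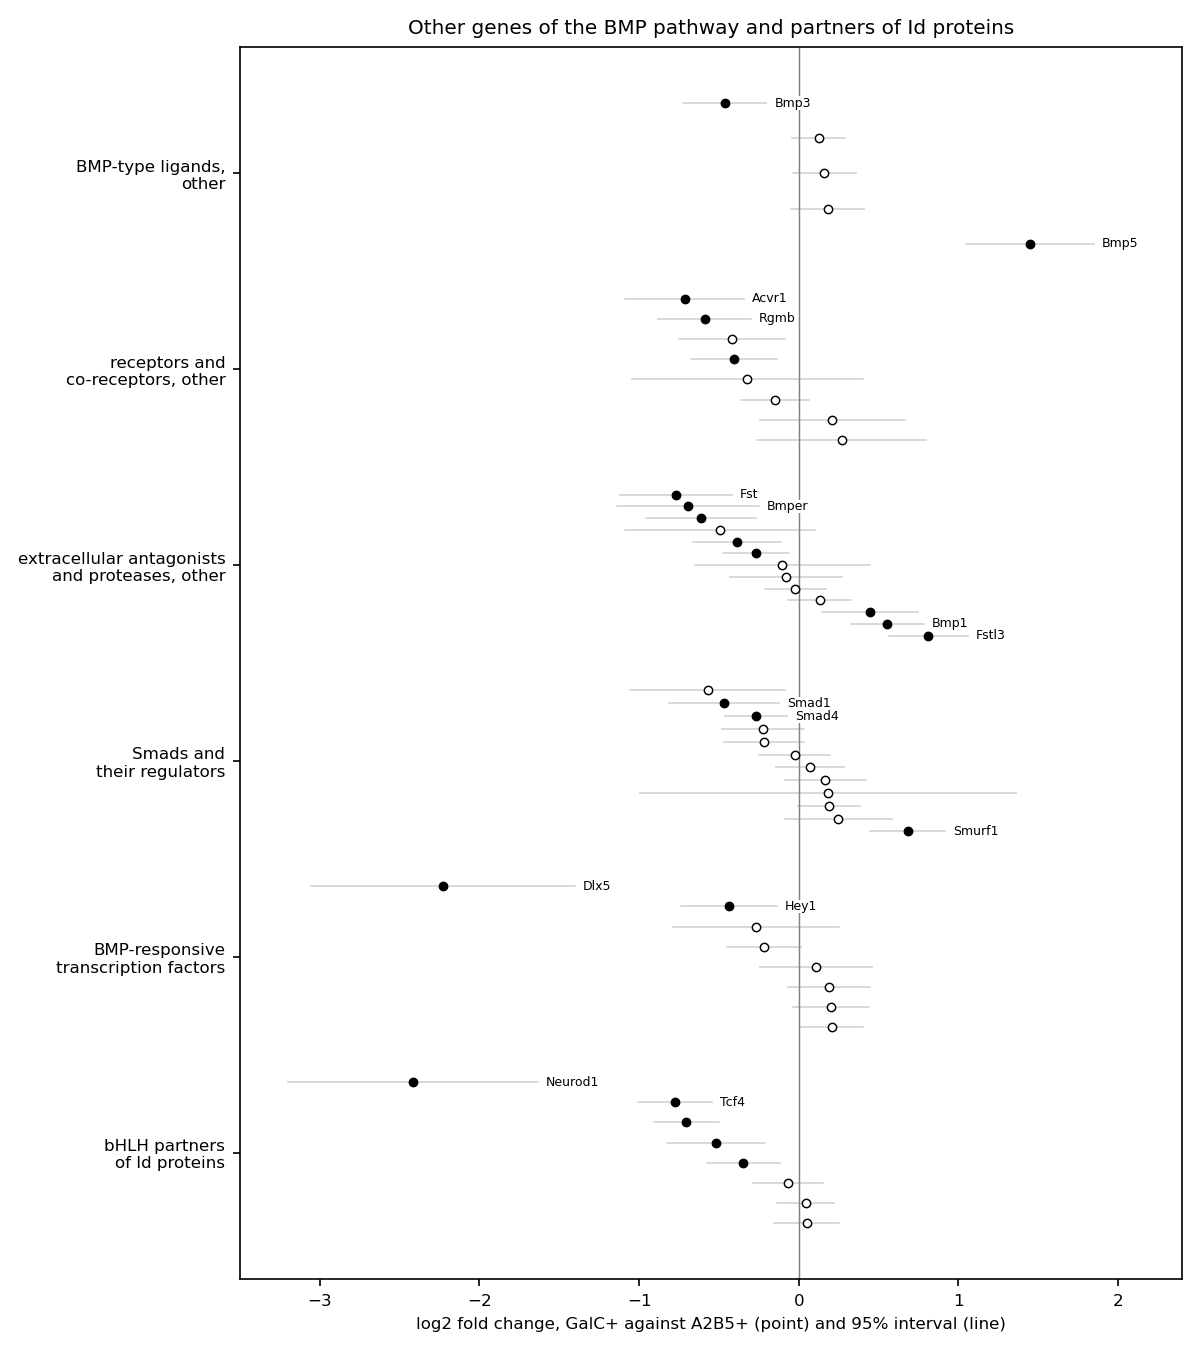
The horizontal axis is the log2 fold change of GalC+ over A2B5+ with its 95% interval as a line, each point is a gene, grouped by list from top to bottom, and filled points have an adjusted p under 0.05. Dlx5 and Neurod1 lie farthest to the left, Bmp5 lies farthest to the right, and the filled points of the receptors, the BMP-responsive factors and the bHLH partners all lie left of 0.

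The genes whose ratios over the 8 arrays were most like those of a called member were found by the root mean square difference of the log2 ratios, among genes that are no members. For Bmp2 1398270_at these were Sytl2 (difference 0.15), Emilin2 (0.16) and Plekha1 (0.17). For Bmp4 they were Cfp (0.19), Gng12 (0.20) and Des (0.22), and Des is also in the list of mural markers. For Bmp6 1388920_at they were Nid2 (0.081), Eci3 (0.10) and Cpz (0.10). For Nog they were Tmem17 (0.065), Crocc (0.069) and Ccdc74a (0.070). For Id1 they were B4galnt1 (0.041), Elof1 (0.049) and Sardh (0.051), and for Id4 1375120_at Tspan5 (0.10), Ildr2 (0.11) and Ptprf (0.12). A gene with a small difference between populations lies close to many others on this measure, so the values can be read only within a member.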

How the data were processed

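Per the labels' protocols, total RNA of sorted A2B5+ and GalC+ cells (4 arrays each) was purified on RNeasy columns and biotinylated with the Affymetrix protocol for small samples. RMA made the signals, per the submitters' processing notes, with a version not given in the sources used here. What the authors deposited is a linear ratio to each probe set's median over the 8 arrays, as read from the values (row medians of 1 within 5e-04), since no label states it. Signal over background and low values could therefore not be filtered, and a dim probe set has a compressed fold. Precision is limited by the number of arrays, and log2 fold changes had a median SE of 0.099.

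From 31099 deposited rows, 57 controls were left out. Of the rest, 20826 had 1 gene symbol in the platform annotation, 436 several and 9780 none; 4525 genes had several probe sets. All 10 members matched RefSeq's gene table, and 0 symbols changed. Values were taken to log2 with no pseudocount, and the populations were compared by two-sided tests in limma 3.58.1 under R 4.3.3, using lmFit, then eBayes. P-values were adjusted by Benjamini-Hochberg, for members over all probe sets and for pathway genes over all genes, and called under 0.05. The fit was tested on simulated data.

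Named were all members, up to 2 of the largest rises and 2 of the largest falls past the threshold in each of 6 pathway lists, and for each called member's largest-variance probe set the 3 genes of nearest pattern. The members, the 6 pathway lists and the 9 marker lists were chosen with earlier results of these data known. Replicates of a population come from different litters. Whether both populations of a replicate number share a litter is not known, and the tests treat the 8 arrays as independent.

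Alternatives were median centring, quantile normalization, a trended and robust prior, the spread of each probe set alone, array weights, a replicate block, log2(ratio + 0.1), leaving out each array, an adjusted p under 0.01, and averaging a gene's probe sets.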

Additional observations from a re-analysis of the deposited data

Results flagged for a closer look

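Of 66 groups of 4 arrays checked, 3 held 1 array far from the others, where chance gives about 1 group in 20; all 3 are A2B5+ replicate 2. Bmp2 1398270_at had a ratio of 0.254 there, where the other A2B5+ arrays had 0.337 to 0.347. Id4 1375183_at had 1.228, where the others had 1.048 to 1.063. Bmp1 had 0.743, where the others had 0.869 to 0.896. Without that array, Bmp2 1398270_at and Bmp1 passed limma's test and Id4 1375183_at did not.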

How the results depend on the processing

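Under median centring, quantile normalization, a trended and robust prior, array weights and log2(ratio + 0.1), 11 of the 18 member probe sets passed, 5 higher and 6 lower, and the median log2 fold change of all probe sets was 0.042 as reported, 0.015 centred and 0.010 after quantile normalization. With the spread of each probe set alone, 4 passed, 2 higher and 2 lower, and 10 pathway genes did. At an adjusted p under 0.01, 11 pathway genes passed. Leaving out each array gave 9 to 11 member probe sets, 15 to 22 pathway genes and 0 to 8 of the 12 paralog pairs. The fold of Bmpr1a turned sign with median centring (-0.014), quantile normalization (-0.024) and array weights (-0.026), and ranged from -0.027 to 0.057 without 1 array. Id3 was -0.036 after quantile normalization and -0.15 to 0.24 without 1 array, and Id2 minus Id3 was -0.11 to 0.20; the cause was not tested. Smad1 had an adjusted p of 0.0506 after quantile normalization, and Smad4 0.239 with the mean of its probe sets.

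Same-numbered arrays of the populations deviated together with correlations of 0.40, 0.089, 0.30 and 0.17. For A2B5+ replicates 1, 3 and 4 this was above the highest correlation with another number (-0.040, 0.14 and -0.027). A2B5+ replicate 2 had 0.089 with its own number and 0.090 with another. These values do not settle whether same numbers share a litter, and the numbers were not taken as pairs. With the replicate block, 11 member probe sets (5 higher, 6 lower) and 24 pathway genes passed, and of the named genes Smad4 alone lost its call (adjusted p = 0.0623). The block leaves 16 sign assignments for the paralog pairs, whose smallest exact p of 0.125 lets 0 pass. A filter on dim probe sets and a block by slide or scan were not run, since the values carry no level and no scan data.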

Other observations

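Of the 25 pathway genes with several probe sets, 4 did not pass by the probe set of largest variance but passed by another, all 4 named after their values were seen. Smad5, a transducer of the BMP signal, had log2 fold changes of -0.57 ± 0.09 (adjusted p = 9.93e-04 by limma over all probe sets) and -0.68 (adjusted p = 0.00916) on probe sets 1388524_at and 1390373_at, and -0.57 (adjusted p = 0.0672 over all genes) on the one used. Smad7, an inhibitory Smad, had 0.32 on 1368897_at (adjusted p = 0.0248 by limma), and Msx2, a homeobox factor known to respond to BMPs, 0.26 on 1369880_at (adjusted p = 0.0125 by limma). Zeb2, a Smad-binding repressor needed for myelination, had 0.44 on 1382252_at (adjusted p = 0.00319 by limma) and 0.48 on 1390940_at (adjusted p = 0.0195 by limma).

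The Zeb2 probe set used, 1393795_at, had 0.18 ± 0.52, with ratios of 1.728, 1.136, 0.617 and 0.405 on A2B5+ replicates 1 to 4 and 1.893, 1.252, 0.864 and 0.397 on GalC+ replicates 1 to 4. The spread among arrays of a population was far wider than the difference between populations, and arrays with the same replicate number had like ratios.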
